A study of Oryza sativa with 6 samples.

Results

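Transcripts of 118 rice (Oryza sativa) genes for glucanases and chitinases were compared between root tips of the wild type J10 and of the mutant lad, which the labels also name sr1. The genes are those whose deposited description gives glycoside hydrolase family 17, 18 or 19, and they make up 118 of the 56962 genes in the table. Family 17 (GH17) has 67 of them, family 18 (GH18) has 35 and family 19 (GH19) has 16. Each genotype had 3 libraries, each from root tips 0.5 cm long of seedlings kept at 25 °C for 6 days, and the series title names SHORT-ROOT 1 and concerns how root cells divide and how tracheary elements form. Which locus is mutated in lad, and how many seedlings were behind a library, the labels do not state. Nothing says that the 3 libraries of a genotype came from separate cultures, so p-values measure only the spread between these libraries.

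Family 17 enzymes are the plant beta-1,3-glucanases, which cut callose, the glucan laid down in new cell plates, around plasmodesmata and at sites of attack, and some of them also cut the glucans of fungal walls. In grasses a few members cut the mixed-linkage glucan of the cell's own wall. Families 18 and 19 hold the plant chitinases, which cut the chitin of fungal walls and of arthropods. Several glucanases and chitinases are counted among the pathogenesis-related proteins that plants make under attack, while others are made in healthy organs. Family 18 in plants also includes proteins without chitinase activity, such as inhibitors of xylanases, and family 19 includes chitinase-like proteins tied in Arabidopsis to the making of cellulose. The deposited descriptions stop at the family, so the substrate of each product is not known from the files, and loci are called by their identifiers.

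Most tested chitinase-family genes were higher in the mutant, and the glucanase family had genes in both directions. Of the 118 genes, 17 had no count in any library, 18 had counts too low for the test and 83 were tested. Of these 83, 46 rose in lad and 12 fell (edgeR quasi-likelihood test, Benjamini-Hochberg adjusted p below 0.05 over all 22624 tested genes), and 25 did not pass. The same test called 24.9% of all tested genes higher and 20.3% lower, or 45.2% in all. In GH18, 16 of 23 tested genes rose and 1 fell. In GH19, 8 of 11 rose and 1 fell. In GH17, 22 of 49 rose and 10 fell. The median log2 change, lad minus J10, was 2.96 in GH18, 1.80 in GH19 and 0.12 in GH17, against 0.02 over all tested genes, and setting the 4 genes with no J10 count to their lower bounds left the 3 medians as they were. Genes that entered the test only through the counts of 1 genotype had to differ, so these counts and medians describe the tested genes and not the families as a whole.

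Libraries held 16405022 to 20693114 counts, and levels are given as CPM, read counts relative to library sizes scaled by edgeR's TMM factors. The deposited descriptions matched no marker of root cap, endodermis, chlorophyll-binding proteins, xylem, phloem or pollen, so the identity of the tissue could not be checked with defining markers. Of 40 genes described as photosystem components, a pattern added later, 5 were tested. Of these, 0 passed in edgeR, DESeq2 or limma voom, and 1 had an unadjusted p below 0.05 in edgeR. The summed level of the 40 was 20 to 22.2 CPM in J10 and 19.4 to 27.2 CPM in lad. A list of 68 genes matched the seed storage patterns, among them cupin 1, a domain that germin-like proteins also carry. Of these, 16 were tested, 7 rose (43.8%) and 1 fell (6.25%), where 24.9% and 20.3% of all tested genes did. The summed level of the 68 was 574 to 673 CPM in J10 and 1310 to 1620 CPM in lad, and the part of any such cells in the results that follow was not tested. In RNA from whole tips, fewer cells of a type and less RNA per cell cannot be told apart.

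Increases were mostly large. A rise of 2-fold or more that passed the test was found for 40 of the 83 tested genes, and 15.2% of all tested genes had one. A rise of 8-fold or more was found for 21, of which 11 were in GH18, 7 in GH17 and 3 in GH19, against 4.98% of all tested genes. Genes with few or no J10 counts, such as LOC_Os11g47500, entered the test through their lad counts, so a large rise was built into their call. Among tested genes with a mean of 10 CPM or more over the libraries, 8 of 42 rose 8-fold or more, against 262 of all 13458 such genes. This mean covers both genotypes, so the class does not remove that limit. LOC_Os01g49320, LOC_Os05g15770 and LOC_Os03g04060 had J10 means of 52.5, 18.5 and 10.4 CPM. The rest of the 8 reached the class through lad, such as LOC_Os01g71350 with 3 J10 counts and LOC_Os01g47070 at 2.20 CPM in J10. A fall of 2-fold or more was found for 6, of which 5 were in GH17 and 1 in GH19, against 4.73% of all tested genes. LOC_Os03g14210 and LOC_Os03g30470 among them entered the test through their J10 counts, so a large fall was built into their call. The 3 lad libraries lay above all 3 J10 libraries for 47 of the 83 genes (30.2% of all tested genes) and below them for 15 (26.6%).

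**Figure D1:**
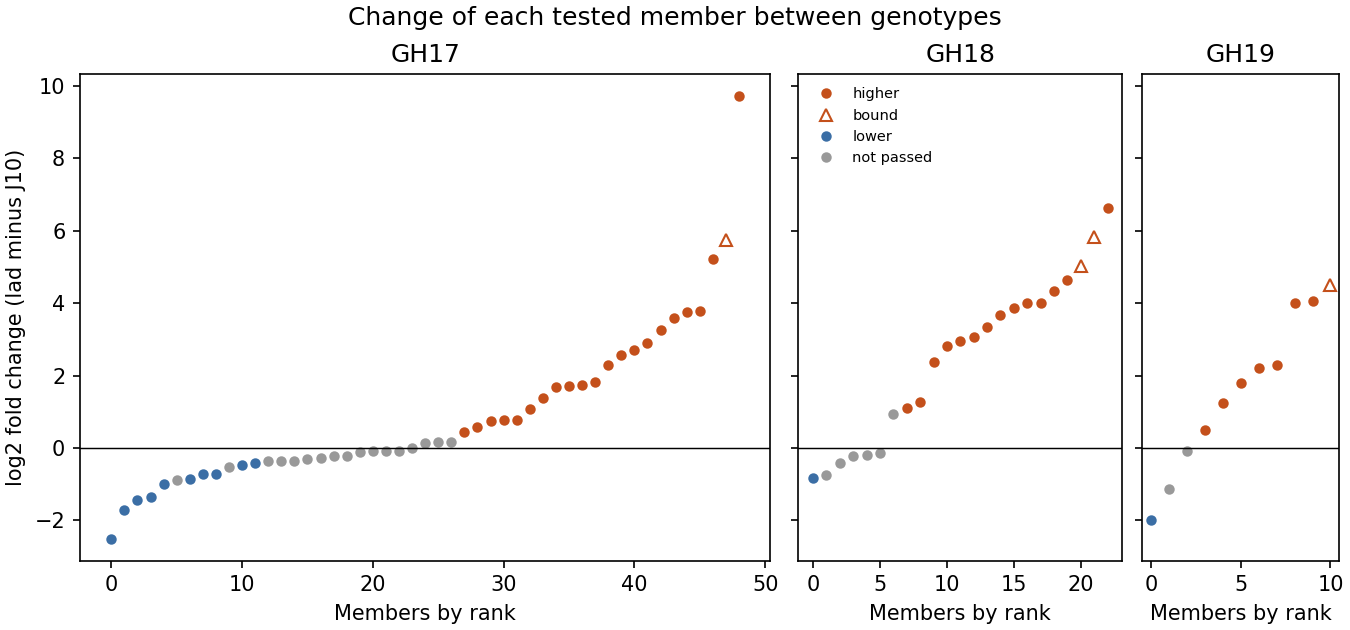
Change of each of the 83 tested genes, as log2 fold change of lad minus J10 (vertical axis), in GH17, GH18 and GH19 and sorted within each family. Filled orange points passed the test as higher, blue points as lower and grey points did not pass, and open triangles are lower bounds for genes with no J10 count; 22, 16 and 8 genes are higher and 10, 1 and 1 lower in the 3 families, and the highest point of GH17 is a fitted value from 3 J10 counts.

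Genes were also grouped by their mean level over the 6 libraries, so a large rise in lad could move a gene into a higher class. The share of tested members called was similar in each class. It was 66.7% under 1 CPM, 68.8% from 1 to 10 CPM and 71.4% at 10 CPM or more. Over all tested genes the share called was larger at higher levels, at 32.2%, 39.3% and 50.1%. Among genes with a mean of 10 CPM or more over the 6 libraries, 22 of 42 rose and 8 fell, where 23.7% and 26.4% of all such genes did. Of these, 11 of 28 in GH17 rose and 7 fell, 6 of 8 in GH18 rose and 1 fell, and 5 of 6 in GH19 rose. Among genes with a mean from 1 to 10 CPM, 20 of 32 rose and 2 fell, where 27.0% and 12.3% of all such genes did. Among genes with a mean under 1 CPM, 4 of 9 tested rose and 2 fell, where 26.3% and 5.90% of all such genes did.

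Summed over all members of a family, GH18 transcripts measured 156, 217 and 176 CPM in J10 replicates 1 to 3 and 1150, 1013 and 1192 CPM in lad replicates 1 to 3. Every lad library was above every J10 library, and the means were 183 ± 31.0 and 1118 ± 93.6 CPM (SD, n = 3 libraries, as for all means that follow), a ratio of 6.12. GH19 transcripts measured 266, 233 and 240 CPM in J10 and 479, 466 and 482 CPM in lad, again without overlap, at a ratio of 1.93. GH17 transcripts measured 1342, 1399 and 1388 CPM in J10 and 1566, 1523 and 1388 CPM in lad. Their means, 1376 ± 30.2 and 1492 ± 92.9 CPM, lay close together and the third lad library lay within the J10 range. The GH17 sum hid changes in both directions, since 29 members had a higher mean in lad, adding 378 CPM, and 27 had a lower one, which took the sum down by 262 CPM. In GH18, 3 genes gave 87.8% of all gains and in GH19 3 genes gave 82.9%, whereas the 3 largest gains in GH17 gave 50.8%.

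**Figure D2:**
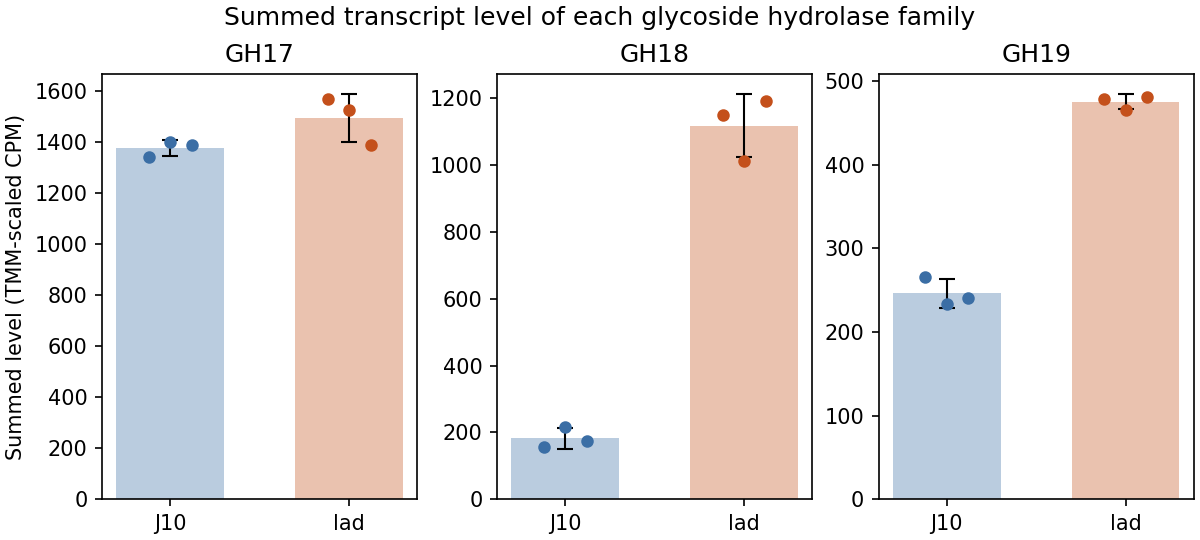
Summed level of all members of GH17, GH18 and GH19 in TMM-scaled CPM (vertical axis, each panel with its own scale from 0), in J10 (blue) and lad (orange). Bars are means, error bars the SD over 3 libraries and points the libraries; the GH18 means are 183 and 1118 CPM, the GH19 means 246 and 476 CPM, and the GH17 means 1376 and 1492 CPM.

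Per kilobase of deposited gene length (RPKM, which allows levels of different genes to be set side by side), the order of the members changed. In J10 the highest of the 118 was the GH17 gene LOC_Os02g53200 at 112 ± 7.83 RPKM, followed by the GH19 gene LOC_Os09g32080 at 83.7 ± 12.3 RPKM and the GH17 genes LOC_Os11g47820 at 78.4 ± 4.04 and LOC_Os03g46660 at 59.5 ± 3.11 RPKM. The ranges of the second and the third of these overlapped. In lad the first 4 places were held by the GH18 genes LOC_Os01g49320 at 326 ± 37.0, LOC_Os05g15770 at 203 ± 6.96 and LOC_Os01g47070 at 170 ± 25.4 RPKM, and by the GH19 gene LOC_Os03g04060 at 151 ± 29.8 RPKM. The third and the fourth did not differ beyond their spread. In J10 these 4 genes had held places 9, 17, 49 and 23.

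**Figure D3:**
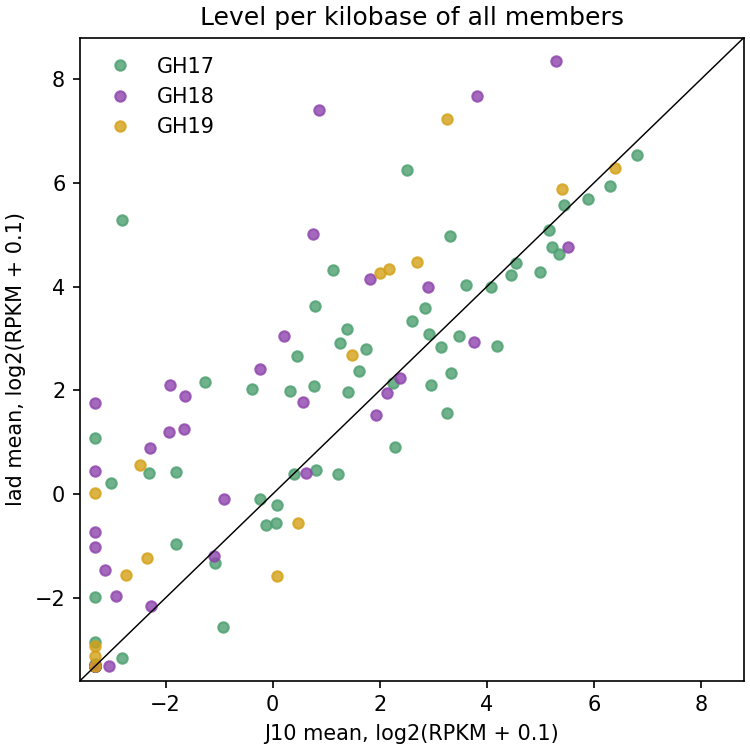
Mean level of all 118 genes in J10 (horizontal axis) and lad (vertical axis), each as log2(RPKM + 0.1) over 3 libraries, coloured by family; the line marks equal levels. Several GH18 genes and 1 GH19 gene lie far above the line at the top of the lad axis, LOC_Os01g49320 highest at 326 RPKM, while the GH17 genes with the highest J10 levels lie on or just below the line.

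The 3 GH18 genes that lead this order are on chromosomes 1 and 5. LOC_Os01g49320 (chromosome 1, 28354771 to 28356109, minus strand, in the coordinates of the deposited table, whose build is not given) measured 36.3, 68.6 and 52.5 CPM in J10 and 441, 384 and 483 CPM in lad. All 3 lad libraries were several times above the highest J10 library, and the log2 change was 3.06 ± 0.21 (SE; adjusted p = 2.06e-06, edgeR quasi-likelihood). LOC_Os05g15770 (chromosome 5, 8902479 to 8903793, minus strand) measured 22.4, 14.5 and 18.5 CPM in J10 and 266, 259 and 277 CPM in lad. Its lad libraries agree closely with each other and its log2 change was 3.86 ± 0.16 (adjusted p = 1.41e-07, edgeR). LOC_Os01g47070 (chromosome 1, 26885484 to 26886754, plus strand) measured 0.823, 3.35 and 2.43 CPM in J10 and 233, 179 and 237 CPM in lad. It was low in each wild type library and among the highest of the 118 in each mutant library, and its log2 change of 6.62 ± 0.33 was the largest of the GH18 genes with more than 3 J10 counts (adjusted p = 2.88e-07, edgeR).

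Further GH18 genes rose from low levels. LOC_Os10g28080 measured 2.26, 2.51 and 1.40 CPM in J10 and 44.1, 40.4 and 41.5 CPM in lad, with a log2 change of 4.34 ± 0.20 (adjusted p = 1.67e-07, edgeR). LOC_Os11g47600 measured 0.0514, 0.209 and 0.378 CPM in J10 and 5.63, 4.76 and 5.80 CPM in lad, a log2 change of 4.63 ± 0.46 that became 5.28 without J10 replicate 3. LOC_Os06g25010 had no count in J10 replicate 1 and 0.366 and 0.378 CPM in the other 2, against 3.14, 3.51 and 5.44 CPM in lad, a log2 change of 4.0 ± 0.62 that became 3.38 without J10 replicate 1. None of these genes had overlapping groups.

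LOC_Os11g47500 and LOC_Os11g47510 had no count in any J10 library. LOC_Os11g47500 had 47, 71 and 44 counts in the lad libraries, which is at least 56.4-fold higher with J10 set to a floor of 3 counts over its libraries, and LOC_Os11g47510 had 42, 21 and 30 counts, at least 32.4-fold higher. With 1 J10 library left out the bounds fell to between 37.2 and 38.1 and to between 21.3 and 21.9, as less J10 depth remained. Intervals and floors here cover counting error only.

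The single GH18 gene that fell was LOC_Os11g27400, which measured 24.3, 19.6 and 20.5 CPM in J10 and 13.2, 11.8 and 10.8 CPM in lad (log2 change -0.85 ± 0.15, adjusted p = 0.00118, edgeR). The GH18 gene with the highest J10 level per kilobase, LOC_Os07g23850, did not pass. It measured 18.97, 58.3 and 33.2 CPM in J10 and 19.1, 29.1 and 17.4 CPM in lad, so that the J10 libraries differed 3-fold among themselves and the genotypes overlapped (log2 change -0.75 ± 0.34, adjusted p = 0.093, edgeR). It passed without J10 replicate 1 (log2 change -1.10), without lad replicate 2 (-1.02) and without the filter on low counts (-0.76), and was -0.28 without J10 replicate 2. LOC_Os01g43220, at 9.03 ± 0.985 and 6.78 ± 1.74 CPM, and LOC_Os07g01770, at 8.40 ± 0.533 and 7.58 ± 0.432 CPM, did not pass either; each shares bases with another deposited gene, on the opposite and on the same strand respectively.

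Among the GH19 genes the largest amount was gained by LOC_Os03g04060 (chromosome 3, 1860427 to 1861786, plus strand), which measured 8.28, 11.8 and 11.2 CPM in J10 and 168, 133 and 199 CPM in lad. Per kilobase it was the highest of the family in all 3 lad libraries, at 152.9, 120.6 and 180.2 RPKM (log2 change 4.0 ± 0.19, adjusted p = 2.13e-07, edgeR). The highest GH19 gene per kilobase in J10, LOC_Os09g32080, did not pass. It measured 179, 134 and 150 CPM in J10 and 145, 153 and 136 CPM in lad, so that the genotypes overlapped, with a log2 change of -0.10 ± 0.12 (adjusted p = 0.542, edgeR). The next in J10, LOC_Os08g41100, rose by a small amount, from 62.5, 57.0 and 56.8 CPM to 88.1, 80.7 and 77.5 CPM (log2 change 0.48 ± 0.10, adjusted p = 0.00311, edgeR).

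The other GH19 genes that rose were low in J10. LOC_Os05g33130 measured 4.27, 6.23 and 5.13 CPM in J10 and 22.2, 35.6 and 18.2 CPM in lad (log2 change 2.28 ± 0.26). LOC_Os01g18400 measured 4.63, 5.39 and 3.89 CPM in J10 and 23.5, 19.97 and 20.8 CPM in lad (2.21 ± 0.18). LOC_Os10g39680 measured 3.91, 10.4 and 6.32 CPM in J10 and 18.8, 32.9 and 20.05 CPM in lad (1.80 ± 0.33). In each of these the lowest lad library was above the highest J10 library. LOC_Os06g51060 had 0, 3 and 3 counts in J10 and 40, 26 and 37 in lad (log2 change 4.07 ± 0.65, and 3.47 without J10 replicate 1). LOC_Os05g33140 had no J10 count and 20, 14 and 31 lad counts, at least 22.6-fold higher, with bounds from 14.9 to 15.3 when 1 J10 library was left out. LOC_Os02g39330 measured 2.92 ± 1.84 CPM in J10 and 6.87 ± 1.67 CPM in lad (adjusted p = 0.038, edgeR). Its call was lost without J10 replicate 1 or 3 or lad replicate 1 or 2 (adjusted p from 0.0508 to 0.132), and its log2 change, 1.23 ± 0.43, became 1.74 without J10 replicate 2 and 0.79 without J10 replicate 1.

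One GH19 gene fell. LOC_Os03g30470 had 21, 24 and 14 counts in J10 and 3, 4 and 7 in lad (log2 change -1.99 ± 0.53, adjusted p = 0.0109, edgeR), and its call was lost without lad replicate 1 (-1.75, adjusted p = 0.0544). It entered the test through its J10 counts, so only a fall could be called. LOC_Os05g04690, at 1.38 ± 0.931 and 0.618 ± 0.448 CPM, had overlapping groups and did not pass, except without J10 replicate 1 (-1.92).

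**Figure D4:**
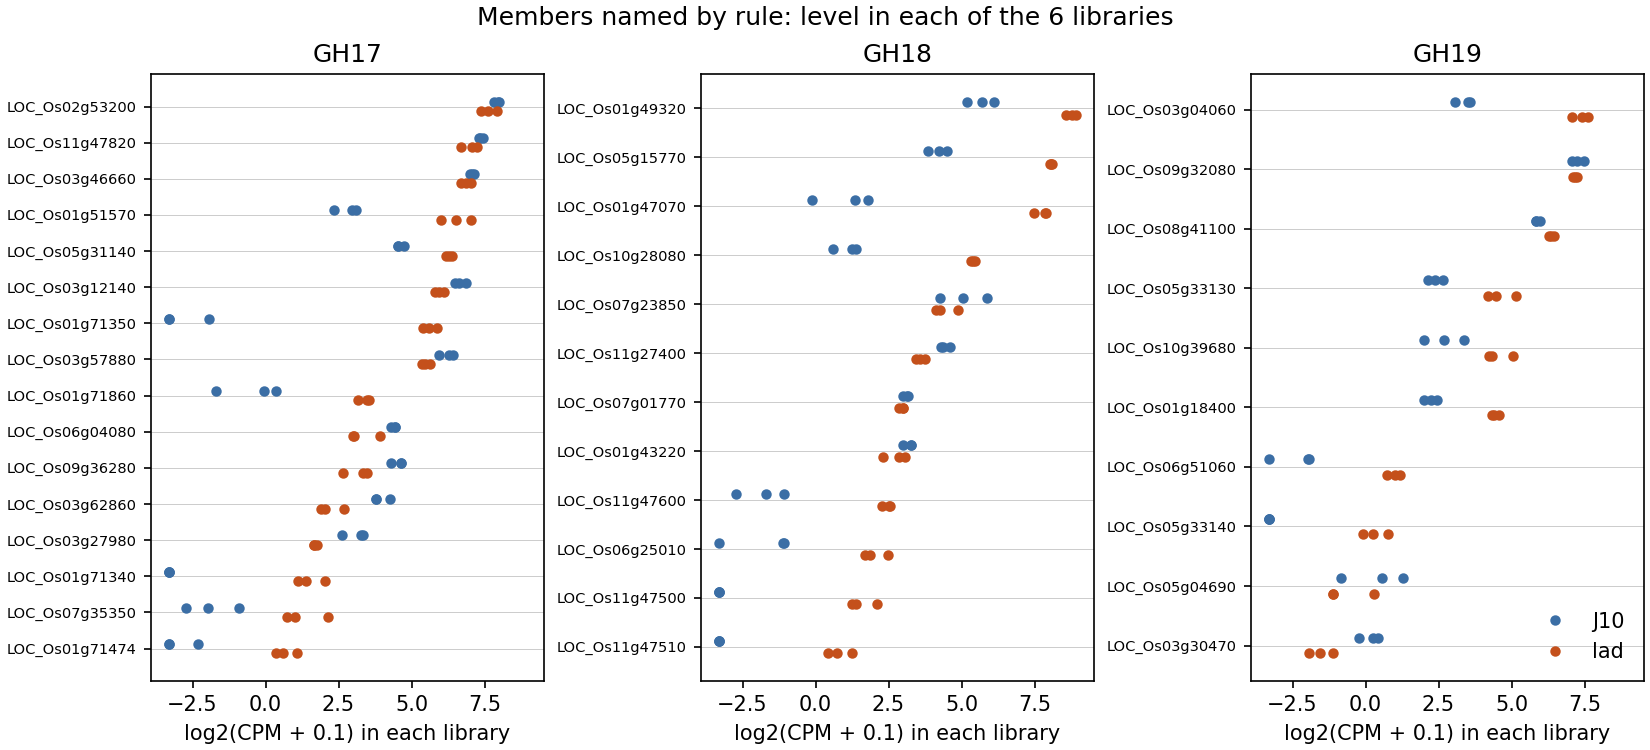
Level in each of the 6 libraries of the 38 genes chosen by the naming rule, as log2(CPM + 0.1) on the horizontal axis, in 3 panels by family; rows are genes ordered by their lad mean, blue points are J10 libraries and orange points lad libraries. In GH18 the 3 top rows separate widely, as for LOC_Os01g47070 at 0.823 to 3.35 CPM in J10 and 179 to 237 CPM in lad, while in the 3 top GH17 rows, led by LOC_Os02g53200 at 165 to 256 CPM over all 6 libraries, the genotypes lie close together.

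The GH17 genes with the highest J10 levels did not pass the test. LOC_Os02g53200, which had the most counts of the family in all 6 libraries, measured 224, 256 and 248 CPM in J10 and 195, 242 and 165 CPM in lad, where the second lad library lay within the J10 range (log2 change -0.28 ± 0.14, adjusted p = 0.138, edgeR). LOC_Os03g46660 measured 142, 128 and 136 CPM in J10 and 103, 131 and 116 CPM in lad, which overlapped (adjusted p = 0.154, edgeR). LOC_Os11g47820 measured 162, 174 and 158 CPM in J10 and 134, 151 and 102 CPM in lad. Its lad libraries all lay below its J10 libraries, at an adjusted p of 0.0625 (edgeR) that passed with upper-quartile factors (0.0432), without the filter on low counts (0.0458) and with DESeq2 (0.0428). The first and the last of these genes also passed without lad replicate 2 (adjusted p = 0.0239 and 0.0202, edgeR).

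Of the 10 GH17 genes that fell, the highest per kilobase in J10 were LOC_Os03g12140 at 40.8 ± 5.68, LOC_Os10g07290 at 37.2 ± 2.85 and LOC_Os03g57880 at 31.9 ± 5.10 RPKM, which did not differ beyond their spread. LOC_Os10g07290 had a call that many settings ended, given with the smaller falls. LOC_Os03g12140 measured 89.7, 117 and 98.2 CPM in J10 and 60.8, 69.7 and 55.1 CPM in lad (log2 change -0.72 ± 0.13, adjusted p = 0.00131, edgeR). LOC_Os03g57880 measured 85.6, 61.9 and 77.1 CPM in J10 and 49.9, 44.2 and 41.3 CPM in lad (-0.73 ± 0.14, adjusted p = 0.00143). In LOC_Os03g12140 and LOC_Os03g57880 the genotypes were separate, though by less than 2-fold.

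Larger falls were seen at lower levels. LOC_Os03g62860 went from 13.6, 18.99 and 13.5 CPM to 4.0, 6.30 and 3.63 CPM, a log2 change of -1.73 ± 0.24. LOC_Os03g27980 went from 8.52 ± 2.19 to 3.14 ± 0.151 CPM (-1.44 ± 0.25), LOC_Os09g36280 from 23.1 ± 2.99 to 9.10 ± 2.54 CPM (-1.35 ± 0.21) and LOC_Os06g04080 from 20.8 ± 0.908 to 10.3 ± 4.07 CPM (-1.01 ± 0.23). The 4 adjusted p-values ranged from 0.000255 to 0.00515 in edgeR, and none had overlapping groups. The lowest log2 change of all, -2.51, belonged to LOC_Os03g14210, which had 14, 11 and 18 counts in J10 and 3, 0 and 4 in lad. This gene entered the test through its J10 counts, so only a fall could be called. Its call was lost without J10 replicate 3 or lad replicate 1 (adjusted p = 0.0689 and 0.0512, edgeR). LOC_Os03g18520 fell from 12.4 ± 1.25 to 6.83 ± 1.36 CPM. Of the 10 lower GH17 genes, 6, with LOC_Os03g14210 among them, are among the 11 tested on chromosome 3, where 3 others rose. Of all tested GH17 genes 20.4% fell, and of all tested genes 20.3%. The share of all genes on chromosome 3 was not computed. The count on this chromosome was noticed in the data and has no test. The calls of LOC_Os10g07290 and LOC_Os01g71690, the smallest falls at -0.46 and -0.43, were each lost with library totals (adjusted p = 0.111 and 0.0657) and without J10 replicate 3 or lad replicate 3 (0.126 and 0.104, and 0.0841 and 0.0506), the first also without J10 replicate 2 (0.0888) and with a filter of 1 CPM in 3 libraries (0.0515), and the second without lad replicate 1 (0.0731).

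Of the 22 GH17 genes that rose, LOC_Os01g51570 and LOC_Os05g31140 had the highest mean CPM in lad, not corrected for length. LOC_Os01g51570 (chromosome 1, 29620954 to 29622393, plus strand) measured 7.76, 4.97 and 8.38 CPM in J10 and 131, 64.9 and 91.1 CPM in lad, so that the lad libraries differed 2-fold among themselves and still stood far above J10 (log2 change 3.76 ± 0.27, adjusted p = 2.60e-06, edgeR). Per kilobase it went from place 23 of the GH17 genes to place 2. LOC_Os05g31140 (chromosome 5, 18106224 to 18110987, minus strand) measured 26.9, 23.1 and 23.02 CPM in J10 and 72.9, 77.5 and 82.9 CPM in lad, with little spread in either genotype (1.68 ± 0.11, adjusted p = 1.68e-06, edgeR). LOC_Os03g25790 rose from 3.33 ± 1.08 to 25.0 ± 2.34 CPM. LOC_Os02g33000 and LOC_Os03g12620 rose by 1.83 and 1.70 on the log2 scale, but each overlaps a gene on the opposite strand and no source says whether reads were counted by strand, so their values are uncertain.

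LOC_Os01g71350 was almost without counts in J10. It had 0, 0 and 3 counts in J10 and 1088, 814 and 818 in lad, or 58.9, 48.4 and 42.4 CPM. The ratio was 947 with an exact 95% counting interval from 324 to 4595, and without J10 replicate 3, which held all 3 counts, the gene was at least 640-fold higher. Without J10 replicate 1 or 2 the ratio was 624 or 630. By level per kilobase it stood at place 50 of the GH17 genes in J10 and at place 6 in lad. LOC_Os07g35350, with 1, 3 and 8 counts in J10 and 80, 32 and 30 in lad, had a log2 change of 3.58 ± 0.67, which became 4.53 without J10 replicate 3 and 2.99 without lad replicate 1.

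Many members lie beside each other, which the choice of genes did not use. Of the 118 genes, 51 form 12 runs in which the next gene of the same family is at most 50 kb away. The runs hold 20 of the 67 GH17 genes, 22 of the 35 GH18 genes and 9 of the 16 GH19 genes. Within runs, 8 of 11 tested GH17 genes rose and 1 fell, 12 of 13 tested GH18 genes rose, and all 4 tested GH19 genes rose. Outside runs, 14 of 38 tested GH17 genes rose and 9 fell, 4 of 10 GH18 genes rose and 1 fell, and 4 of 7 GH19 genes rose and 1 fell. Over all tested genes 24.9% rose and 20.3% fell. Several rising genes in runs entered the test only through their lad counts, so only a rise could be called. LOC_Os01g71340, LOC_Os11g47500 and LOC_Os05g33140, which had no J10 count, are examples. The shares inside and outside runs were not tested against each other. Genes in a run may be near-identical copies, between which the counting may have split or shared reads, so the value of each is uncertain to that extent. Their sequences were not compared.

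The run with LOC_Os01g71350 holds 6 GH17 genes on chromosome 1, from 41346574 to 41401593. Its summed level was 3.55, 1.67 and 3.46 CPM in J10 and 64.6, 55.7 and 47.6 CPM in lad, most of which came from LOC_Os01g71350. LOC_Os01g71340 had no J10 count and 2.85 ± 1.00 CPM in lad, at least 53.3-fold higher, or 35.1 to 36.0 when 1 J10 library was left out. LOC_Os01g71474 had 2 counts in J10 and 84 in lad, a ratio of 43.9 with an exact 95% counting interval from 11.8 to 368, and without J10 replicate 1, which held both counts, it was at least 19.3-fold higher. LOC_Os01g71380, in the same run, measured 2.81 ± 0.982 CPM in J10 and 1.52 ± 0.572 CPM in lad and did not pass (log2 change -0.88 ± 0.41, adjusted p = 0.106, edgeR), though it did without J10 replicate 2 (-1.17). The run therefore held rising genes beside 1 whose fitted change had the opposite sign.

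A second run on chromosome 1, from 41525723 to 41681805, holds 10 GH17 genes, of which 4 had no count in any library. Its summed level was 34.7, 29.2 and 36.3 CPM in J10 and 37.9, 41.7 and 39.3 CPM in lad, a small difference that covered changes in both directions. LOC_Os01g71860 rose from 0.874, 0.209 and 1.19 CPM to 10.9, 8.86 and 11.6 CPM (log2 change 3.78 ± 0.41, adjusted p = 3.95e-05, edgeR), and LOC_Os01g71830 from 0.80 ± 0.665 to 4.76 ± 1.66 CPM (2.56 ± 0.52, and 3.43 without J10 replicate 1). LOC_Os01g71690, the most abundant gene of this run, fell from 30.7 ± 3.16 to 22.9 ± 1.89 CPM. LOC_Os01g71810 measured 0.906 ± 0.365 and 1.01 ± 0.218 CPM and did not pass.

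On chromosome 7, from 21223250 to 21282637, all 3 tested genes of a run of 4 GH17 genes rose. LOC_Os07g35480 measured 5.14, 4.08 and 4.76 CPM in J10 and 63.0, 29.5 and 41.6 CPM in lad (log2 change 3.26 ± 0.26, adjusted p = 5.27e-06, edgeR). LOC_Os07g35510 rose from 3.05 ± 0.475 to 15.0 ± 2.07 CPM (2.30 ± 0.20) and LOC_Os07g35560 from 3.37 ± 0.380 to 8.72 ± 1.44 CPM (1.37 ± 0.22). These 3 genes had similar J10 levels and different lad levels.

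The GH18 run on chromosome 10, from 14558959 to 14603702, holds LOC_Os10g28050, LOC_Os10g28080 and LOC_Os10g28120, and each of them rose. LOC_Os10g28050, at 10.2 ± 1.83 CPM the most abundant of them in J10, reached 21.9 ± 2.07 CPM in lad (log2 change 1.10 ± 0.17, adjusted p = 0.000414, edgeR). LOC_Os10g28120 rose from 1.25 ± 0.110 to 9.71 ± 0.752 CPM (2.96 ± 0.23). LOC_Os10g28080 went from the second to the highest of the run.

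The longest run by number holds 11 GH18 genes on chromosome 11, from 28723113 to 28761603. Its summed level was low in both genotypes, at 1.23, 1.62 and 1.14 CPM in J10 and 16.6, 15.6 and 14.2 CPM in lad. Besides LOC_Os11g47500, LOC_Os11g47510 and LOC_Os11g47600, LOC_Os11g47530 rose, from 0.360, 0.209 and 0 CPM to 3.14, 2.32 and 2.18 CPM (log2 change 3.68 ± 0.64, and 4.47 without J10 replicate 1). LOC_Os11g47560 measured 0.475 ± 0.117 and 0.92 ± 0.495 CPM and did not pass (adjusted p = 0.178, edgeR). Of the members too low for the test, LOC_Os11g47590 and LOC_Os11g47580 had no J10 count and were at least 13.2-fold and at least 9.40-fold higher in lad, with bounds down to 8.72 and 6.20 when 1 J10 library was left out, and LOC_Os11g47570 had 25 counts in J10 and 22 in lad.

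**Figure D5:**
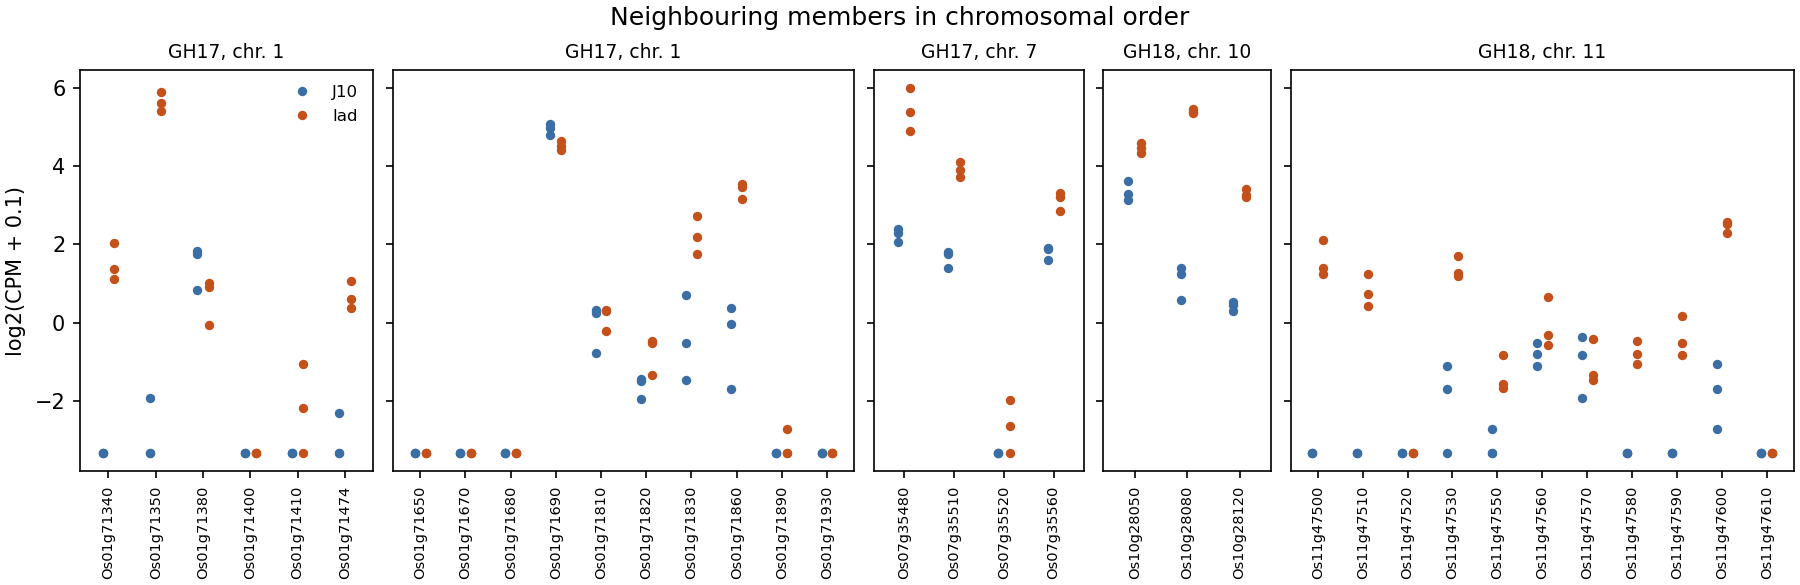
Level in each library, as log2(CPM + 0.1) on the vertical axis, of the genes of the 5 runs with 3 or more tested genes, in chromosomal order along each horizontal axis; blue points are J10 libraries and orange points lad libraries, and points at the bottom are libraries with no count. In the chromosome 7 run the 3 tested genes stand above J10 in lad in every library, and in the chromosome 11 run most genes are near the bottom in J10 and some are at 0 in all libraries.

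GH18 genes of shorter runs also rose. On chromosome 1, LOC_Os01g64110 rose from 6.46 ± 0.850 to 33.3 ± 8.53 CPM (log2 change 2.36 ± 0.20), and its neighbour LOC_Os01g64100 had 4, 2 and 3 counts in J10 and 75, 32 and 36 in lad (3.99 ± 0.55). On chromosome 5, LOC_Os05g15770 was the only tested gene of a run of 3. On chromosome 8, 2 genes of a run of 3 were tested. LOC_Os08g40690 rose by 1.26 on the log2 scale (adjusted p = 0.00824, edgeR). LOC_Os08g40680 measured 0.720, 0 and 0 CPM in J10 and 2.33, 1.84 and 3.42 CPM in lad (3.34 ± 0.88, adjusted p = 0.0106, edgeR). All 14 of its J10 counts were in replicate 1, so that without that library no J10 count remained; without J10 replicate 2 or 3 its log2 change was 2.75 or 2.76, and it did not pass in DESeq2 (adjusted p = 0.131).

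More of the 118 genes had counts in lad. At least 1 count was found for 90 in J10 and for 100 in lad. Of these, 11 had counts in lad and none in J10, 4 each in GH17 and GH18 and 3 in GH19, and 1 GH18 gene had the reverse. These counts were not set beside the same over all genes. A mean of 1 CPM or more was reached by 63 of the 118 genes in J10 and by 78 in lad. Of all 56962 genes, 20072 reached it in J10 and 21274 in lad. Over the 74 genes with a mean of at least 1 CPM, the median coefficient of variation among libraries was 16.9% in J10 and 16.8% in lad. By family it was 14.9% and 16.5% in GH17, 29.5% and 20.4% in GH18, and 18.4% and 22.0% in GH19.

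Genes that act beside these families were read from the same table. Callose synthases make the glucan that beta-1,3-glucanases cut. Of 15 genes described as such, 13 were tested, 4 rose (30.8%) and 2 fell (15.4%), with a median log2 change of 0.01, where 24.9% and 20.3% of all tested genes did. LOC_Os03g03610 measured 47.6, 23.8 and 33.7 CPM in J10 and 140.1, 104.7 and 139.0 CPM in lad, without overlap (1.87 ± 0.22, adjusted p = 7.24e-05, edgeR). LOC_Os01g48200 fell from 47.0 ± 4.19 to 34.4 ± 1.21 CPM. LysM domains bind chitin fragments in some receptors of the plant cell surface. Of 10 genes with that domain in the deposited domain column, 8 were tested, 3 rose (37.5%) and 2 fell (25.0%), with a median log2 change of -0.09. LOC_Os02g09960 had the largest rise, from 9.30 to 45.1 CPM (2.28 ± 0.13, adjusted p = 6.74e-07, edgeR). The 2 that fell had the highest J10 means of the list, LOC_Os09g37600 going from 67.2 to 38.6 CPM and LOC_Os09g27890 from 64.4 to 36.4 CPM.

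Other protein groups that are counted with glucanases and chitinases as pathogenesis-related were read in the same way. Of 43 genes with a thaumatin domain, 27 were tested, 12 rose (44.4%) and 6 fell (22.2%), with a median log2 change of 0.04, where 24.9% and 20.3% of all tested genes rose and fell. Several of the 12 had only 9 to 14 J10 counts and entered the test through their lad counts. For those only a rise could be called, so the share of 44.4% is partly set by the filter. All 4 genes described as barwin, a domain of one group of such proteins, rose. They had 2, 0, 29 and 31 J10 counts and entered the test through their lad counts, so only a rise could be called. Of 5 tested genes described as Bet v I, 4 rose. The same limit holds for LOC_Os12g36860 among them, which had 3 J10 counts. Glycoside hydrolases of other families, enzymes that mostly act on plant sugars and walls, had 38 higher and 38 lower among 159 tested genes, 23.9% each, which is near the shares of all tested genes, with a median log2 change of -0.08.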

How the data were processed

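RNA of root tips was extracted with Trizol and made into TruSeq libraries, per the labels' protocols. The authors deposited whole-number read counts per gene in 1 table, with gene length and a description. Bowtie 0.12.2 and the mouse builds mm8 and mm9 stand in the submitters' processing notes, and mouse builds cannot be the source of rice loci. No source used here gives the rice build, annotation, counter or strand setting.

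Genes that passed edgeR's filterByExpr were tested with edgeR 4.0.16 (quasi-likelihood test, TMM, R 4.3.3) over all 22624 genes, with Benjamini-Hochberg adjustment at 0.05. SE is the size of the log2 change over the root of F. DESeq2 1.42.0 and limma 3.58.1 voom were alternatives. The common biological coefficient of variation was 0.165. Libraries of a genotype differed beyond sampling noise (chi-square per degree of freedom at least 9.44) and were kept separate. Members and lists were chosen with earlier results of these data known. Named genes were those with the largest rises and falls, the highest levels, no count in 1 genotype, or a place in a run. LOC_Os01g64100, LOC_Os01g64110, LOC_Os02g33000, LOC_Os02g39330, LOC_Os03g12620, LOC_Os03g18520, LOC_Os03g25790, LOC_Os10g07290 and the named callose synthases and LysM genes were chosen after their values were seen. The thaumatin, LysM and photosystem patterns were added after the first patterns matched no gene. The RefSeq gene table matched 0 of 118 members, so no sequences are shown. Floors were 3 counts over a genotype.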

Additional observations from a re-analysis of the deposited data

How the results depend on the processing

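Of the 58 genes called among the 118, 49 passed in every setting fitted. The number called was 59 with upper-quartile factors, 58 with RLE factors, 56 with library totals, 62 without the filter on low counts, 54 with a filter of 1 CPM in 3 libraries, 58 with DESeq2 and 58 with limma voom, and 52 to 58 when 1 library was left out. No called gene changed direction. Over all genes 10229 were called, 7804 to 11191 when 1 library was left out, and the share of higher genes among them was 55.2% with TMM, 49.3% with upper-quartile factors and 63.1% with library totals, which moved the median log2 change of all genes from 0.02 to 0.11 and that of GH17 from 0.12 to 0.21. The labels do not say that replicate numbers pair the libraries. Same-numbered libraries had correlations of 0.0572, 0.129 and -0.0317 in their deviations from the genotype mean, and differently numbered ones had -0.1475 to 0.1011. With 3 libraries per genotype such values cannot settle whether the libraries were paired. With the number as a replicate block, 60 of the genes were called (33 in GH17, 18 in GH18 and 9 in GH19), against 58, and LOC_Os07g23850 and LOC_Os11g47820, not called without it, passed (adjusted p = 0.0157 and 0.0229, edgeR). Low counts limit the genes below 1 CPM, whose fold changes are bounds or rest on few reads.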

Other observations

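GH17 genes shorter than 1500 bases and longer ones were set side by side after the data were seen. Of 12 tested genes below 1500 bases 6 rose and 1 fell, with a median log2 change of 0.46, and of 37 tested genes of 1500 bases or more 16 rose and 9 fell, with a median of -0.08. Over all tested genes 24.9% rose and 20.3% fell. Among the shorter genes that rose, LOC_Os01g71340, LOC_Os01g71350 and LOC_Os01g71474 had 0, 3 and 2 J10 counts. They entered the test through their lad counts, so only a rise could be called. The same holds for LOC_Os07g35350 among the longer genes, while LOC_Os03g14210 entered through its J10 counts, so only a fall could be called. These shares are therefore partly set by the filter, and the difference was not tested.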
